A study of Mus musculus with 41 samples.

Results

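Oxidative phosphorylation subunits are the proteins of the 5 complexes of the inner mitochondrial membrane, and their transcripts were followed here in cerebellar microglia of mice with Niemann-Pick type C disease (NPC). Genes were taken by name from the deposited table: symbols beginning with Nduf, Uqcr, Cox4 to Cox8 or Atp5, and the 4 Sdh genes, if 3 or more libraries reached 10 normalized counts. Among the 24015 genes listed there, 92 symbols matched, and 88 of them passed this filter. The names cover 42 genes of complex I (7 core subunits, 28 accessory subunits and 7 assembly factors), 4 of complex II, 8 of complex III, 17 of complex IV and 17 of complex V. Among these, Atp5s and Atp5sl carry the name without being subunits of the enzyme, and Cox7a2l is an assembly factor of respiratory supercomplexes. In all 41 libraries 84 of the 88 stood at 10 or more normalized counts. The exceptions were the tissue isoforms Cox4i2, Cox7a1 and Cox8b, each at that level in 13 libraries, and Cox6b2, in 36. The 4 symbols left out were Cox7b2 and Cox8c, at 0 reads, Ndufa4l2, with 13 reads in all, and Ndufs5, a complex I subunit of ordinary tissues, with 2 reads in all. How genes were annotated and counted is not given in the sources used here. The near lack of Ndufs5 reads is therefore not taken as absence of its transcript. The subunits encoded by mitochondrial DNA were not analysed here.

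Microglia, the resident macrophages of the brain, were sorted from the cerebellum as CD11b+Tmem119+ cells, and their polyA RNA was amplified with SMART-seq v4 and sequenced. NPC mice of strain BALB/cNctr-Npc1m1N/J, which lack working Npc1, the lysosomal cholesterol transporter, were set against WT mice of strain balb/c at 1, 3, 6 and 9 weeks of age, all untreated, with 4 libraries a group and 3 for NPC at 9 weeks. In a further arm 5 NPC mice of 9 weeks given PLX5622, an inhibitor of the Csf1r kinase, were set against 5 NPC mice of 9 weeks labelled control, so both groups of that arm carry the Npc1 mutation. The mutation is carried by every cell of the animal.

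Electrons from NADH enter the chain at complex I and those from succinate at complex II, which is also an enzyme of the citric acid cycle. Complex III passes them through cytochrome c to complex IV, which reduces oxygen. The proton gradient built on the way drives complex V, the ATP synthase. Core subunits of complex I carry the redox centres, whereas accessory subunits surround and stabilise them. Several complex IV subunits exist as a common form and a form of heart and skeletal muscle, lung or testis. Microglia draw on oxidative phosphorylation in their resting state and can shift towards glycolysis when activated.

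Promoters are shown for 3 genes because these genes stand for the patterns described further on: Cox6a1, the common form of subunit 6a and partner of the muscle form Cox6a2; Atp5b, which differed between NPC and WT at 3, 6 and 9 weeks; and Cox8b, a muscle form near 0 in WT. No window was at hand for Cox6a2. Each is the 250 bases before the start of the RefSeq gene, written 5′ to 3′ on the gene's strand with GRCm38.p6 coordinates, and motif matches are in capitals.
Cox6a1, chr5:115348959-115349208, minus strand: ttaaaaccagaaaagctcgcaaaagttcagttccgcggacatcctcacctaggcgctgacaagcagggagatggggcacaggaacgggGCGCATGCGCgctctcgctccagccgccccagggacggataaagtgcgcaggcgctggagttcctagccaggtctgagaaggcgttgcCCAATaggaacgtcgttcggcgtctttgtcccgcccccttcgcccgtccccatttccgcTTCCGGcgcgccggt
Atp5b, chr10:128083057-128083306, plus strand: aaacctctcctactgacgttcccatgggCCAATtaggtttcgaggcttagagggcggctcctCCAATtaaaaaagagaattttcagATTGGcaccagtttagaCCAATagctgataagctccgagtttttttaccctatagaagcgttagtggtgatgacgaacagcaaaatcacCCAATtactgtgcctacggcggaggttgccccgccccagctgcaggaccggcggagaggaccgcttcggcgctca
Cox8b, chr7:140900447-140900696, minus strand: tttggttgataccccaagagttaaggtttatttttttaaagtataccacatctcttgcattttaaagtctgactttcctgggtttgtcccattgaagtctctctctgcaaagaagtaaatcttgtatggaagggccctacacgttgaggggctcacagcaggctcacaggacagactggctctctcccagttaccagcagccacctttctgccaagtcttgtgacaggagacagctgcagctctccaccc
The words searched on both strands were GCGCATGC for NRF1, a transcription factor of nuclear genes for mitochondrial proteins, CCGGAA for ETS factors such as Gabpa, AAGATGGC for YY1, CCAAT, and TATAAA. The stretch of Cox6a1 held 2 overlapping NRF1 words, 1 ETS word and 1 CCAAT box. That of Atp5b held 5 CCAAT boxes, and the 250 bases of Cox8b held none of the words, though its 300-base window held a TATAAA word. In the 300-base windows of 74 of the 88 genes (80 windows with alternative starts), the NRF1 word was in 15% of windows, against 2.71% of all 32851 windows of the table. For the ETS word the shares were 35% and 14.9%, and for YY1 15% and 2.75%. CCAAT was in 42.5% and 37.4%, and TATAAA in 8.75% and 13.6%. A match is a description of the letters and not a site of binding.

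Defining markers of microglia were present in every group. The sum of 7 of them (Itgam, Tmem119, Cx3cr1, P2ry12, Csf1r, Sall1 and Siglech) lay between 677246 and 1769637 normalized counts in a library, against at most 655.67 for 8 neuronal markers. Sums for other cells reached higher values, up to 89431 for 7 monocyte and neutrophil markers (a PLX5622 library) and 19838 for 8 oligodendrocyte markers. Those for 8 astrocyte and 6 border macrophage markers reached 15103 and 9108.4. Npc1 itself stood at 291.36 to 786.68 normalized counts in NPC libraries, against 2606 to 7386.2 in WT libraries. Library depth, as recovered reads in units of 1e+06, was 23.2 to 40.5 with a median of 30.5. A library of the NPC group at 3 weeks, replicate C, stood apart from its group in the genes described here and in values of the whole library. It had 12003 genes with 3 or more reads, against 13378 to 13605 in replicates A, B and D. Its normalized counts summed to 37.2 in units of 1e+06, against 30.3 to 33.5 in those replicates, at a depth of 28.6. Results that rest on replicate C are given with and without it.

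The 88 genes together held the largest share of a library in the youngest mice. At 1 week they took 0.886% ± 0.0869 of the counts in NPC libraries and 0.873% ± 0.123 in WT libraries (SD, n = 4 each), and the ranges overlapped. At 3 weeks the share was 0.682% ± 0.272 in NPC libraries, or 0.547% ± 0.0416 in the 3 without replicate C, and 0.447% ± 0.0376 in WT libraries. The NPC libraries A, B and D (0.499% to 0.573%) were all above the WT libraries (0.398% to 0.487%), and replicate C, at 1.09%, was higher than the largest WT value at 1 week. At 6 weeks the groups overlapped, with 0.486% to 0.680% in NPC libraries and 0.396% to 0.527% in WT libraries. At 9 weeks they did not, with 0.559% to 0.677% in NPC libraries and 0.430% to 0.516% in WT libraries. In the PLX5622 arm the share was 0.570% to 0.691% with PLX5622 and 0.573% to 0.637% in control mice. In bulk samples of this kind fewer cells of a type and less RNA per cell cannot be told apart.

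**Figure D1:**
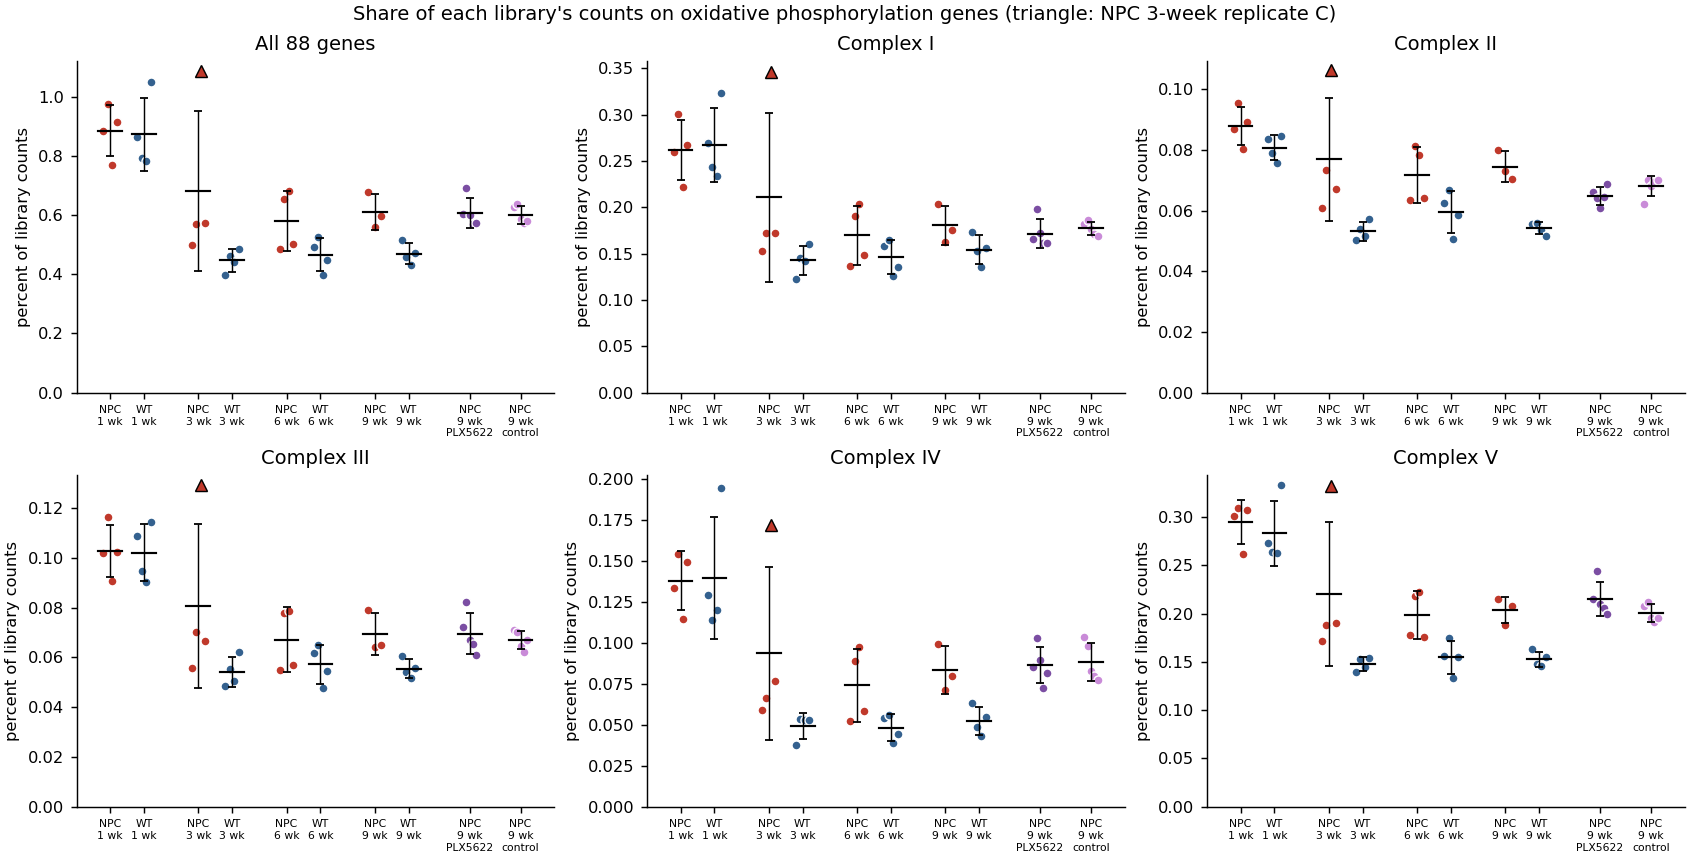
Share of each library's normalized counts, in percent (y axis), on all 88 genes and on the genes of each complex, by group (x axis). Points are libraries, bars mean and SD, and the triangle is NPC 3w replicate C, which lies above the other 3 libraries of its group in every panel; NPC libraries at 9 weeks lie above WT libraries at 9 weeks for all 88 genes.

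By complex, complex V held the largest share at 9 weeks in NPC mice, with complexes II and III the smallest. At 9 weeks complex V took 0.204% ± 0.0136 in NPC libraries and 0.153% ± 0.00772 in WT libraries, complex I 0.180% ± 0.0215 and 0.154% ± 0.0154, and complex IV 0.0833% ± 0.0145 and 0.0525% ± 0.00856 (SD, n = 3 NPC and 4 WT). Complex II took 0.0745% ± 0.00500 in NPC libraries and 0.0542% ± 0.00198 in WT libraries. The NPC and WT ranges were apart at 9 weeks for complexes II, III, IV and V, and they overlapped for complex I.

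Levels per kilobase of transcript rest on the length assigned to each gene, and they spread widely within a complex. In WT libraries at 3 weeks the 11 common subunits of complex IV ran from 498.65 normalized counts per kb for Cox7b, a small subunit, to 4860 for Cox4i1, the subunit through which ATP regulates the enzyme. In complex V of the same libraries the range was 273.06 per kb for Atp5g1, a c-ring gene, to 8214.8 for Atp5b, the catalytic beta subunit. Atp5g1 was assigned 2675.5 bases, against 586 for Atp5g2 and 718.5 for Atp5g3. By normalized counts Atp5g1, at 730.56, was above Atp5g2 at 277.24 and Atp5l at 159.1. Its place at the low end thus rests on the assigned length. The 3 c-ring genes Atp5g1, Atp5g2 and Atp5g3 code for the same mature protein, and Atp5g3 was the highest of them in all 10 groups, for instance 2732.5 per kb in NPC libraries and 1981.4 in WT libraries at 9 weeks. Many of these genes have processed pseudogenes and close paralogs, and how reads shared with such copies were counted is not given in the sources used here.

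Between 1 and 3 weeks of age the subunits fell in WT microglia, in every complex. With limma's moderated test on log2(normalized count + 1), 73 of the 88 were lower at 3 weeks than at 1 week, where 18.4% of all 14046 genes tested were lower, and 2 were higher, where 15.7% of all genes were higher. The median log2 change of the 88 was -0.94, against -0.01 for all genes tested. With libraries rescaled to equal totals the median over all genes moved by -0.10 and that of the 88 became -1.05. Lower genes were 35 of 42 in complex I, 3 of 4 in complex II, 7 of 8 in complex III, 13 of 17 in complex IV and 15 of 17 in complex V. All 15 subunits of complex V and all 11 common subunits of complex IV were among them. The 2 higher genes were Ndufaf7, an arginine methyltransferase needed for complex I assembly, at log2 0.54 ± 0.15 (SE; adjusted p = 0.00524 by limma), and Atp5sl, also known as Dmac2, a complex I assembly factor that carries the name of an ATP synthase gene, at log2 0.39 ± 0.14 (adjusted p = 0.0244 by limma).

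Cox4i1 had 2839, 3962, 3945 and 3932 normalized counts in WT replicates A to D at 3 weeks, against 11216, 9173, 9224 and 14822 at 1 week. Every library at 3 weeks was lower than every library at 1 week, and the log2 change was -1.58 ± 0.30 (SE; adjusted p = 0.000167 by limma). Cox5a, a complex IV subunit on the matrix side, had the smallest adjusted p of the 88, at a log2 change of -1.53 ± 0.23 (adjusted p = 7.8e-06 by limma). Atp5b had 15395, 16663, 15040 and 15860 normalized counts at 3 weeks, against 25573, 25842, 26295 and 31358 at 1 week, again without overlap (log2 -0.79 ± 0.15, adjusted p = 0.000107 by limma). Sdha, the flavoprotein of complex II, was the gene of its complex that did not pass, with 8318, 8037, 7882 and 8914 normalized counts at 3 weeks, against 10664, 9799, 8935 and 9130 at 1 week. These Sdha values lay apart by a narrow margin, and the log2 change of -0.21 ± 0.12 did not pass (adjusted p = 0.174 by limma).

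Other cells and programmes moved over the same interval in WT mice. Of 7 microglial markers 6 were higher at 3 weeks, and of 6 markers of border-associated macrophages 5 were lower, their sum being 340.54 to 688.47 normalized counts at 3 weeks and 4376.7 to 9108.4 at 1 week. None of these 6 markers was at 0 in all libraries of either group. Sums for 8 astrocyte markers were 8312 to 10700 at 3 weeks and 2577 to 4299 at 1 week (1 higher), and those for 5 endothelial markers 869 to 1477 at 3 weeks and 449 to 827 at 1 week (1 higher). Sums for 8 neuronal markers were 38.3 to 98.9 at 3 weeks and 252 to 352 at 1 week (2 of 7 tested lower), and none of these 3 sums overlapped between the ages. Oligodendrocyte sums overlapped, at 6344 to 7570 at 3 weeks and 5309 to 12339 at 1 week, and 4 of 8 markers were lower. Of 77 cytosolic ribosomal proteins, a list added after the data were seen, 72 were lower. What part these had in the fall was not tested.

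After 3 weeks none of the 88 genes passed limma's test between neighbouring ages in WT mice. Between 6 and 3 weeks 0 of 88 passed, where 0.057% of all genes tested passed in either direction, and between 9 and 6 weeks again 0, where 0.00712% passed. At an unadjusted p under 0.05 the counts were 1 and 4, and edgeR and DESeq2 on recovered reads called 0 in both.

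In NPC mice the count over the same interval turned on replicate C at 3 weeks. With all 4 libraries 5 of the 88 were lower at 3 weeks than at 1 week, where 12.8% of all genes were lower, and 3 were higher, where 12.2% were higher, with a median log2 change of -0.25, or -0.47 after rescaling, which moved the median over all genes by -0.21. Leaving out replicate B at 1 week, or replicate A at 3 weeks, gave 1 lower and 3 higher genes, and leaving out replicate D at 1 week gave 2 lower and 3 higher genes. Without replicate C 55 were lower, where 14.3% of all genes were lower, and 3 were higher, with a median of -0.61. In replicate C 84 of the 88 genes were higher than in the other 3 NPC libraries of that age. The 3 that rose in NPC mice by limma were Cox6a2 and Cox8b, muscle forms of complex IV subunits, and Ndufaf7. The later steps gave 0 calls in NPC mice by limma, between 6 and 3 weeks (0.228% of all genes in either direction) and between 9 and 6 weeks (0.37%). At an unadjusted p under 0.05 there were 1 and 0, and edgeR and DESeq2 called 0 in both. The median change between 6 and 3 weeks was -0.29 with replicate C and 0.05 without it.

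At 1 week the 88 genes showed no genotype difference that passed. Limma called 0 higher and 0 lower in NPC than in WT mice, where 0.876% of all genes tested were higher and 0.577% lower, and the median log2 change was 0.01. The single gene at an unadjusted p under 0.05 was Cox6b2, the testis form of subunit 6b, at log2 -1.32 ± 0.43 (SE; adjusted p = 0.15 by limma). DESeq2 called that gene lower and edgeR called 0.

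At 3 weeks 52 of the 88 were higher in NPC than in WT mice and 0 were lower, where 14.3% of all genes tested were higher and 12.6% lower. The median log2 change was 0.69, against -0.04 for all genes. By complex the higher genes were 23 of 42 (complex I), 4 of 4 (complex II), 6 of 8 (complex III), 9 of 17 (complex IV) and 10 of 17 (complex V). Of the 88, 33 lay wholly higher in the 4 NPC than in the 4 WT libraries. Without replicate C that count was also 33, beside 1 gene wholly lower, but groups with fewer libraries part more readily. How many of all genes tested lay apart in this way was not counted, so the 33 has no share to be read against. Within complex I, 19 of 28 accessory subunits and 4 of 7 core subunits were higher, and 0 of 7 assembly factors, whose log2 changes had a median of 0.37. When libraries were rescaled to equal totals, the median over all genes moved by -0.14 (log2), and that of the 88 became 0.55. On recovered reads edgeR called 69 of the 88 higher and DESeq2 71, and without replicate C 9 and 11. Shares of all genes called higher by edgeR and DESeq2 are not given here, so these counts are not set against a background.

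Much of that count came from replicate C. Without it 9 genes were higher, which is 10.2% of the 88, where 8.92% of all genes were higher, and the median log2 change was 0.39, against 0.00 for all genes. The 9 were Atp5a1, Atp5b and Atp5c1, the alpha, beta and gamma subunits of the catalytic head of ATP synthase; Sdha and Sdhc, the flavoprotein and a membrane anchor of complex II; Cox4i1 and Cox6a2; and Ndufa1 and Ndufa10, accessory subunits of complex I. Leaving out WT 3w replicate A, the library with the lowest share on the 88 genes in its group, gave 14 higher genes, and leaving out WT 3w replicate C gave 28. A fit limited to the 2 groups compared called 1. Shares of all genes called in these 3 fits are not given here.

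Ndufa1 had 708, 913, 3375 and 1167 normalized counts in NPC replicates A to D at 3 weeks, against 347, 595, 574 and 499 in WT replicates. All NPC libraries were above all WT libraries, and replicate C was the highest by far. The log2 change was 1.35 ± 0.35 (SE; adjusted p = 0.00658 by limma), and 0.88 without replicate C (adjusted p = 0.0443 by limma).

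Atp5b had 19289, 23064, 38473 and 22078 normalized counts in NPC replicates A to D at 3 weeks, against 15395, 16663, 15040 and 15860 in WT replicates. The groups did not overlap, and the log2 change was 0.66 ± 0.15 (SE; adjusted p = 0.00183 by limma), or 0.45 without replicate C (adjusted p = 0.00709 by limma). Sdha had 9910, 13124, 14210 and 10997 in NPC replicates and 8318, 8037, 7882 and 8914 in WT replicates. These did not overlap either, and replicate C was close to replicate B (log2 0.53 ± 0.12, adjusted p = 0.0022 by limma).

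Cox4i1 had 5081, 6735, 22925 and 6547 normalized counts in NPC replicates at 3 weeks, against 2839, 3962, 3945 and 3932 in WT replicates. Replicate C was more than any library at 1 week, and the other 3 NPC libraries also lay above WT. The log2 change was 1.22 ± 0.30 (SE; adjusted p = 0.00474 by limma), and 0.74 without replicate C (adjusted p = 0.0235 by limma). Uqcrc1, a large subunit of complex III, had 8726, 12639, 22551 and 10600 in NPC replicates and 7784, 8635, 7573 and 10157 in WT replicates. Replicate A of NPC lay inside the WT range, and complex III had no gene called without replicate C. Uqcrh, the hinge protein of complex III, had 570, 855, 2465 and 844 in NPC replicates and 369, 538, 540 and 561 in WT replicates, an order without overlap in which the lowest NPC library nearly met the highest WT library.

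**Figure D2:**
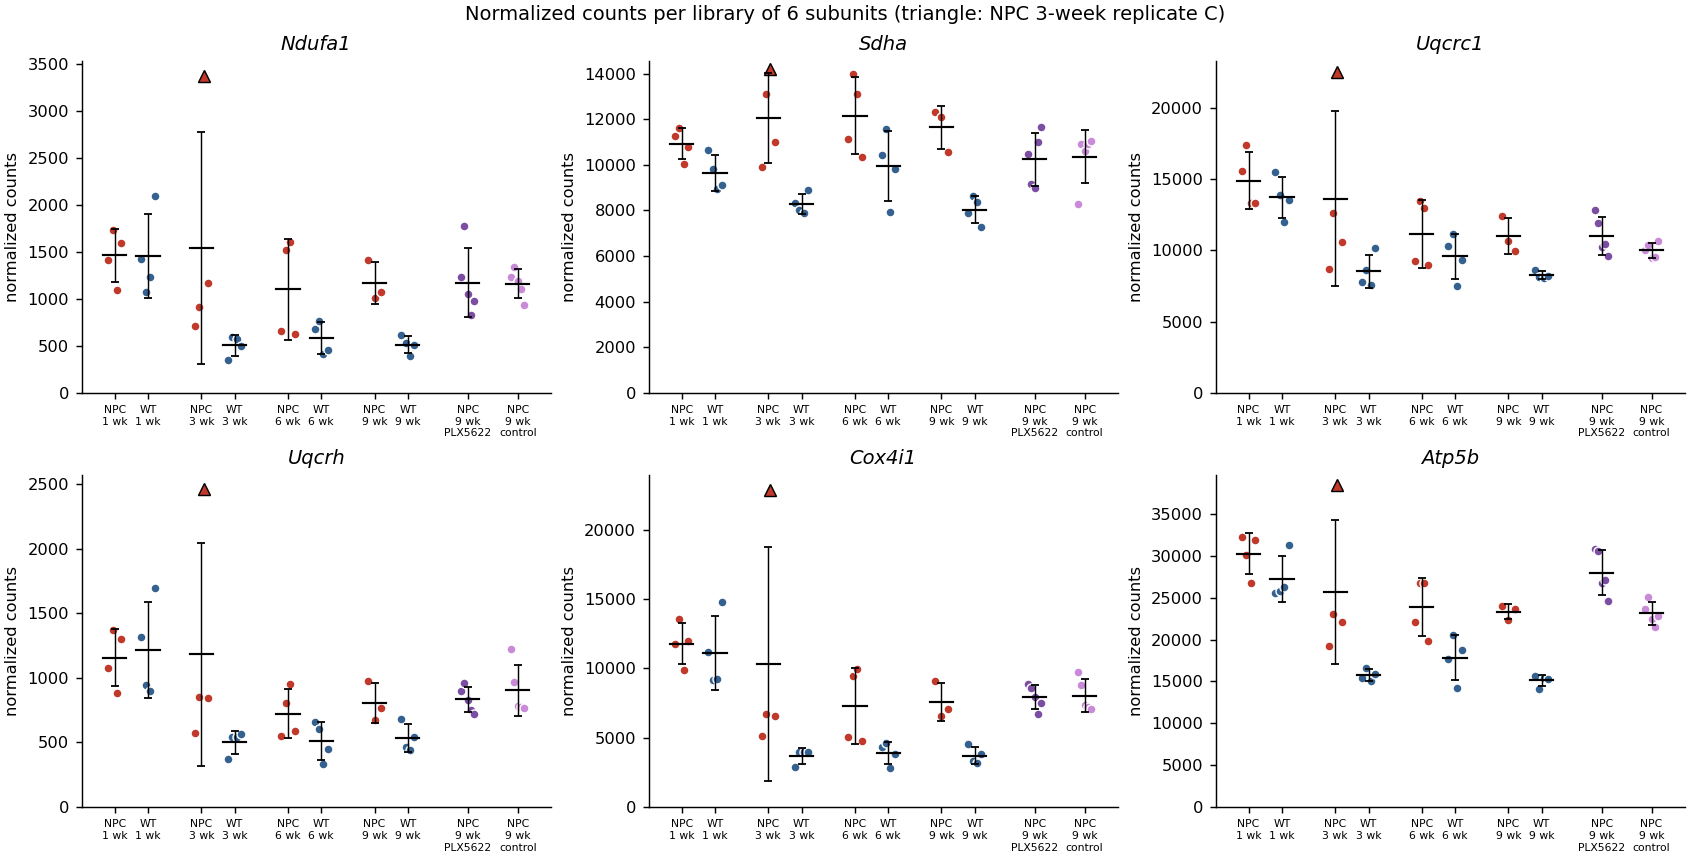
Normalized counts per library (y axis) of 6 subunits by group (x axis), with mean and SD; the triangle is NPC 3w replicate C. For Cox4i1 that library stands at 22925, against 5081 to 6735 in the other NPC libraries of 3 weeks, while for Sdha it stands at 14210 beside 13124 in replicate B.

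Transcript length moved with these results. The median length of the 88 genes was 751 bases, against 2642 for 13941 tested genes with a length, and 61.4% of the 88 were under 1000 bases, against 9.08% of those genes. In NPC against WT mice at 3 weeks, the median log2 change of all genes was 0.44 in the shortest of 20 length bins and -0.70 in the longest. In replicate C genes under 1000 bases stood 0.89 above the mean of the other 3 NPC libraries on the log2 scale (median), genes of 3000 bases or more stood at -0.79, and the 88 genes at 1.39. Its share on cytosolic ribosomal proteins was 0.814%, against 0.306% to 0.359% in the other 3. Centring every library within length bins left 29 of the 88 higher in NPC mice at 3 weeks, with a median log2 change of 0.33, and 11 higher when replicate C was left out too, with a median of 0.18. In WT mice the fall between 1 and 3 weeks ran with length as well, at -0.71 in the shortest bin and 0.40 in the longest, and after centring 44 of the 88 were lower and 4 higher, with a median of -0.39. Shares of all genes called after centring are not given here. The part of length in either result was not tested beyond these values.

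**Figure D3:**
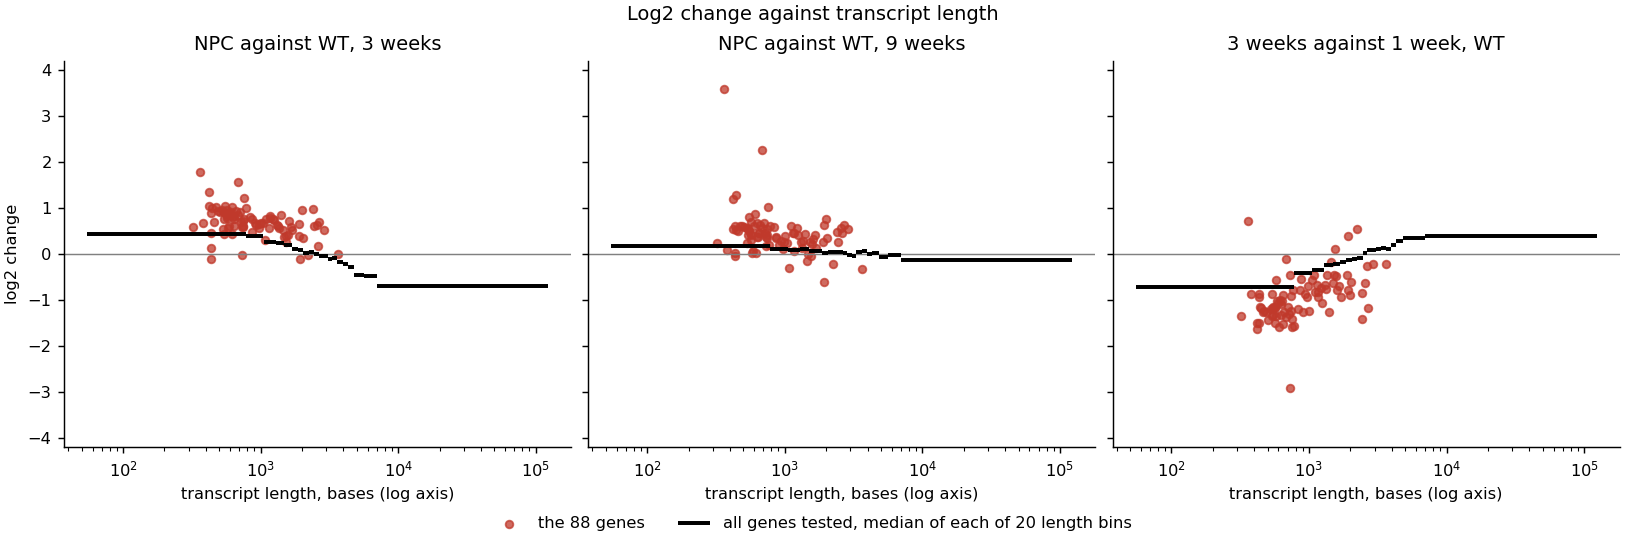
Log2 change (y axis) of each of the 88 genes against transcript length in bases (x axis, log scale) in 3 comparisons, with the median of all genes tested in each of 20 length bins as black bars. The 88 genes crowd at the short end; at 3 weeks their medians in the shortest bin were 0.82, against 0.44 for all genes there, and in WT mice at 3 against 1 week -1.19, against -0.71.

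At 6 weeks 3 of the 88 were higher in NPC mice and 0 lower, where 8.76% of all genes tested were higher and 6.5% lower, a smaller share than among all genes. The 3 were Cox6a2, Cox8b and Atp5b, and the median log2 change was 0.33. Atp5b had 22135, 26735, 26819 and 19814 normalized counts in NPC replicates and 17656, 20617, 14256 and 18821 in WT replicates, with the lowest NPC library inside the WT range (log2 0.42 ± 0.15, adjusted p = 0.0489 by limma). Cox4i1 had 5060, 9440, 9934 and 4757 in NPC replicates and 4288, 4575, 2786 and 3801 in WT replicates, without overlap, yet missed the threshold (log2 0.86 ± 0.30, adjusted p = 0.0536 by limma). With NPC 3w replicate C left out of the shared fit, Cox4i1 passed at 6 weeks (log2 0.86 ± 0.21, adjusted p = 0.00283 by limma). NPC replicates B and C were the higher libraries in Cox4i1, Atp5b, Ndufa1 and Uqcrc1. The same libraries had the largest sums of oligodendrocyte markers, 19838 and 17158 normalized counts, against 9196 and 6831 in NPC replicates A and D and 5513 to 10085 in WT libraries. Their astrocyte sums were 15103 and 14654, against 11527 and 10049 in NPC replicates A and D and 9610 to 10795 in WT libraries, and their neuronal sums 318 and 246, against at most 185 in the WT libraries. By limma 2 of 8 astrocyte, 1 of 7 neuronal and 0 of 8 oligodendrocyte markers were higher, and 4 of 7 microglial markers were lower, with sums of 1073747 to 1129984 in NPC libraries and 1384803 to 1769637 in WT libraries. The part of these cells in the calls was not tested. Without NPC 6w replicate C 1 gene was called, Cox6a2, without replicate D 8 were higher and 1 lower, and without replicates B and C together 0 were called (limma) and the median log2 change was -0.02. Leaving NPC 3w replicate C out of the shared fit gave 12 higher and 1 lower at 6 weeks, where 12.2% and 11.1% of all genes were called.

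At 9 weeks 8 of the 88 were higher in NPC mice and 1 lower, where 11.2% of all genes tested were higher and 7.77% lower. The 8 are 9.09% of the 88. A fit of these 2 groups alone called 41 higher and 1 lower of 86 tested, where 35.1% of all genes passed in either direction, and array weights gave 33 higher and 1 lower of the 88, where 34.1% passed. The median log2 change was 0.41, against 0.03 for all genes, and in 37 genes the 3 NPC libraries all lay above the 4 WT libraries. The same was not counted over all genes tested, so the 37 has no share to be read against. Higher genes were Cox6a2, Cox8b and Cox4i1 in complex IV, Atp5a1 and Atp5b in complex V, Ndufa1 and Ndufs1 in complex I, and Sdha in complex II. Without NPC 3w replicate C in the shared fit 20 were higher, where 15.1% of all genes were, and without NPC 9w replicate A 3 were higher and 1 lower.

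Sdha had 12305, 12094 and 10569 normalized counts in NPC replicates A to C at 9 weeks, against 7895, 8615, 8360 and 7262 in WT replicates. All NPC libraries lay above all WT libraries (log2 0.54 ± 0.13, adjusted p = 0.00343 by limma). Atp5b had 24072, 22325 and 23701 in NPC replicates and 15644, 14121, 15450 and 15327 in WT replicates, both groups tight and far apart (log2 0.63 ± 0.16, adjusted p = 0.00492 by limma). Ndufs1, the largest core subunit of complex I, had 2079, 2189 and 1666 in NPC replicates and 1300, 1506, 1493 and 1410 in WT replicates. These did not overlap, and the log2 change was 0.46 ± 0.13 (adjusted p = 0.0102 by limma). Of the 8 higher genes, Ndufs1 has 2625.5 bases, Sdha 2900, Atp5b 1916 and Atp5a1 2572.5. The others are shorter, with 419 for Ndufa1, 360 for Cox8b, 680 for Cox6a2 and 755 for Cox4i1. At 9 weeks the Spearman correlation of length and log2 change was -0.28 over the 88 and -0.07 over all genes tested. The part of length at this age was not tested.

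Cox4i1 had 9103, 6534 and 7051 normalized counts in NPC replicates at 9 weeks, against 4509, 3334, 3161 and 3795 in WT replicates, without overlap (log2 1.03 ± 0.33, adjusted p = 0.026 by limma). Ndufa1 had 1416, 1005 and 1074 in NPC replicates and 613, 531, 388 and 511 in WT replicates (log2 1.19 ± 0.38, adjusted p = 0.0269 by limma). Without NPC 3w replicate C in the shared fit the adjusted p at 9 weeks was 0.000877 for Cox4i1 and 0.00341 for Ndufa1 (limma). Both genes stood at higher levels in every NPC library than in any WT library. The lower gene was Atp5sl, with 765, 885 and 1043 in NPC replicates and 1466, 1498, 1206 and 1260 in WT replicates (log2 -0.60 ± 0.15, adjusted p = 0.00363 by limma). In WT mice Atp5sl also moved against the subunits, being higher at 3 weeks than at 1 week.

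**Figure D4:**
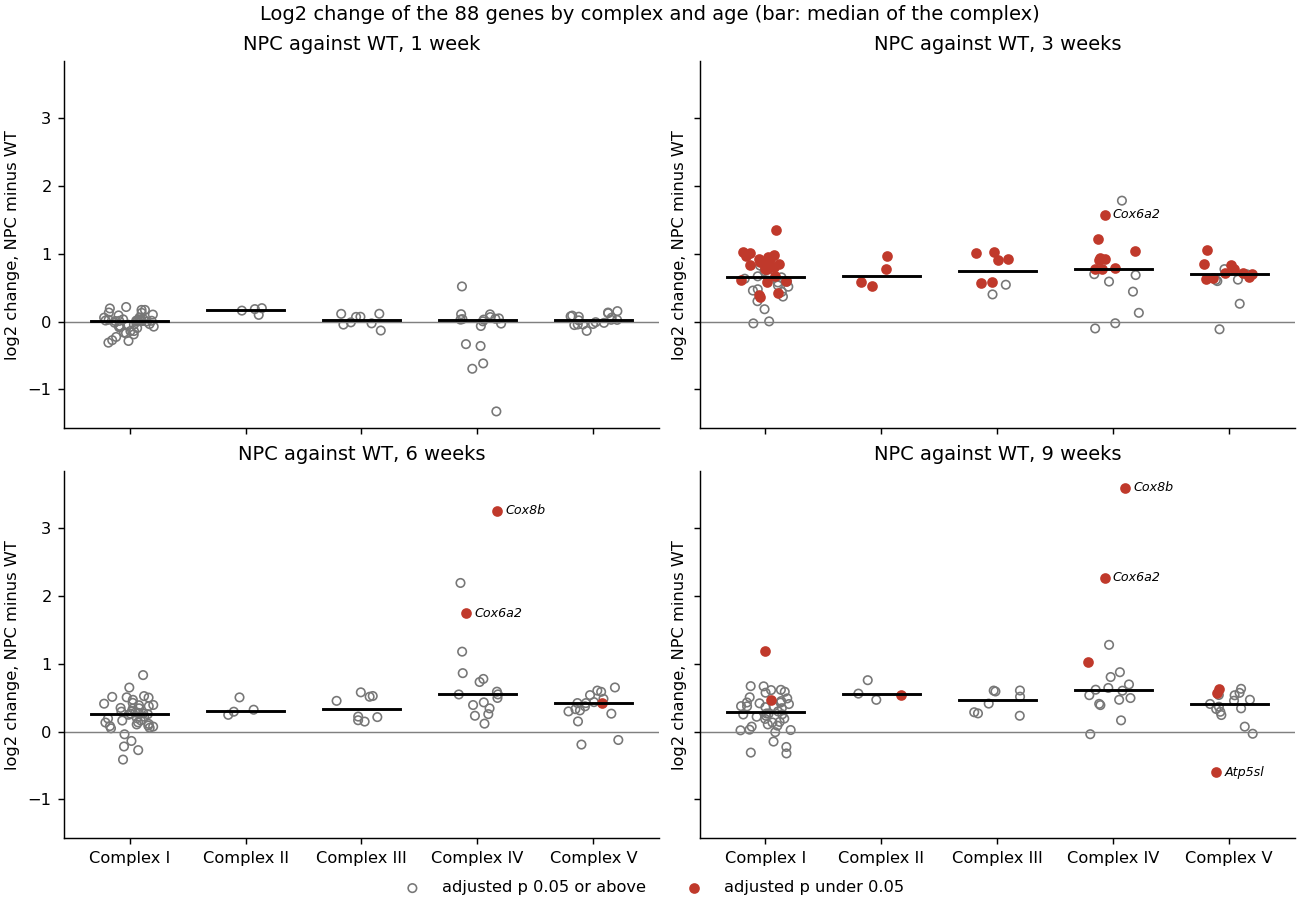
Log2 change, NPC minus WT (y axis), of the 88 genes by complex (x axis) at 4 ages; filled points had an adjusted p under 0.05 by limma and bars are medians of a complex. Points centre on 0 at 1 week, 52 are filled at 3 weeks with replicate C included, and at 6 and 9 weeks the medians stay above 0 with 3 and 9 filled points.

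The gene with the smallest adjusted p of the 88 at 3, 6 and 9 weeks was Cox6a2, the heart and skeletal muscle form of subunit 6a of complex IV. At 3 weeks it had 134, 168, 343 and 162 normalized counts in NPC replicates A to D, against 49.6, 60.5, 59.3 and 86.3 in WT replicates. At 6 weeks it had 190, 381, 321 and 133 in NPC replicates and 76.9, 96.7, 51.8 and 61.4 in WT replicates, and at 9 weeks 352, 345 and 341 in NPC replicates and 118, 67.0, 63.5 and 51.9 in WT replicates. NPC and WT libraries did not overlap at any of these ages, and the ranges of the 4 WT ages overlapped with each other. The log2 changes were 1.57 ± 0.34 at 3 weeks (adjusted p = 0.00149), 1.74 ± 0.34 at 6 weeks (adjusted p = 0.000539) and 2.26 ± 0.37 at 9 weeks (adjusted p = 4.18e-05, all by limma). At 1 week the libraries overlapped, with 56.8, 56.8, 45.2 and 52.5 in NPC replicates and 111, 48.6, 46.8 and 83.1 in WT replicates (log2 -0.36 ± 0.34, adjusted p = 0.797 by limma). Without NPC 3w replicate C the change at 3 weeks was 1.28 (adjusted p = 0.00969 by limma), and without NPC 6w replicates B and C that at 6 weeks was 1.18 (adjusted p = 0.0746 by limma).

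Cox6a2 was also the single member whose genotype difference changed with age by limma's test of the interaction. The difference between the effects at 3 and at 1 week was log2 1.93 ± 0.48 (SE; adjusted p = 0.0422 by limma), where 1.06% of all genes passed in either direction and the median over the 88 was 0.69, or 0.34 without NPC 3w replicate C. With a replicate block the adjusted p was 0.0646. It was past 0.05 by limma without WT 1w replicate A (0.0899) or D (0.102), without WT 3w replicate A (0.104), B (0.0807) or C (0.0747), without NPC 1w replicate A (0.0616), B (0.0616), C (0.102) or D (0.0706), and without NPC 3w replicate B (0.0579) or C (0.0893). The call was kept without each of the other 5 libraries of these 4 groups. Between later ages 0 members passed, between 6 and 3 weeks (0% of all genes), 9 and 6 weeks (0%) and 9 and 3 weeks (0.456%). Of the 88, 1 was at an unadjusted p under 0.05 in each of these, and edgeR and DESeq2 called 0.

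Set against its common partner Cox6a1 within each library, Cox6a2 made up 9.93% ± 1.79 of the pair's counts in NPC libraries at 9 weeks (n = 3) and 3.55% ± 0.661 in WT libraries (SD, n = 4). At 6 weeks the shares were 7.75% ± 1.68 and 3.56% ± 0.483, at 3 weeks 5.48% ± 0.596 and 3.23% ± 0.364, and at 1 week 0.932% ± 0.0720 and 1.32% ± 0.550 (NPC and WT, SD, n = 4 each). The ranges of NPC and WT libraries did not overlap at any age, with NPC the lower at 1 week and the higher later. NPC 3w replicate C, at 4.67%, was the lowest of its group by this ratio and still above the highest WT library of that age. The 2 transcripts have similar lengths, 680 and 571 bases.

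**Figure D5:**
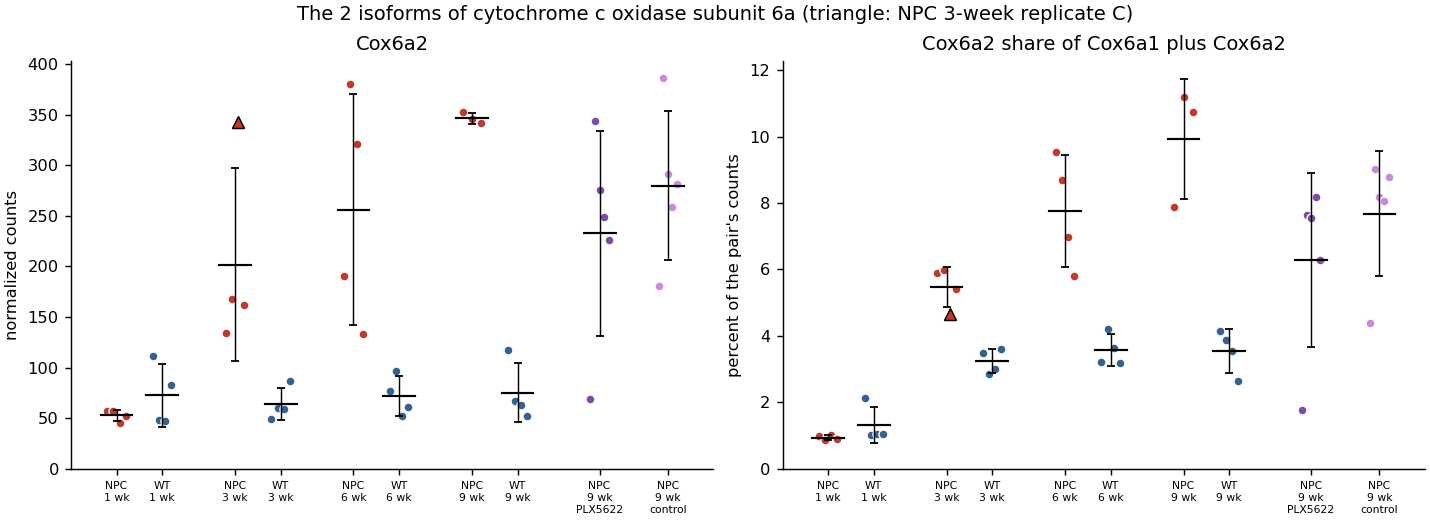
Normalized counts of Cox6a2 (left, y axis) and its percent of the counts of Cox6a1 plus Cox6a2 (right, y axis) in each library by group (x axis), with mean and SD; the triangle is NPC 3w replicate C. NPC libraries lie above WT libraries at 3, 6 and 9 weeks in both panels, and the triangle, highest of its group at the left, is lowest of its group at the right.

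The other muscle and lung isoforms of complex IV stood at low levels in the untreated groups. Cox8b, the muscle form of subunit 8, had 65.6, 19.1 and 28.0 normalized counts in NPC replicates at 9 weeks, against 4.09, 1.05, 0 and 5.02 in WT replicates. At 6 weeks it had 11.7, 46.0, 75.5 and 3.91 in NPC replicates and 1.08, 2.65, 0.741 and 1.08 in WT replicates. The groups did not overlap at either age, but counts this small make the size uncertain: log2 3.59 ± 0.95 at 9 weeks (adjusted p = 0.00709) and 3.25 ± 0.88 at 6 weeks (adjusted p = 0.0106, both by limma). Relative to Cox8a, the common form, it made up 1.18% of the pair's counts at 9 weeks in NPC libraries and 0.134% in WT libraries. The 5 NPC mice of 9 weeks labelled control had 34.6, 8.45, 2.66, 0 and 0 normalized counts of Cox8b, or 0.232% of the pair. Of these libraries 1 lay inside the range of the untreated NPC libraries and the others below it, and 3 lay inside that of the WT libraries. Cox4i2, the lung form of subunit 4, and Cox7a1, the muscle form of subunit 7a, averaged 2.44 and 9.40 normalized counts in NPC libraries at 9 weeks, against 1.94 and 3.20 in WT libraries. Their common forms Cox4i1 and Cox7a2 averaged 7562 and 1157 in NPC libraries, against 3700 and 735 in WT libraries.

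Genes that work beside the complexes gave mixed counts, to be read against the shares of all genes called at 9 weeks, 11.2% higher and 7.77% lower. At that age 8 of 19 citric acid cycle genes were higher in NPC mice and 0 lower, among them Idh3a, a subunit of NAD-dependent isocitrate dehydrogenase, at log2 0.93 ± 0.16 (adjusted p = 0.000115 by limma), and Cs, citrate synthase, at log2 0.36 ± 0.12 (adjusted p = 0.0344 by limma). Of 19 genes for electron carriers and ATP export 5 were higher and 0 lower, led by the ADP/ATP carriers Slc25a4 at log2 0.74 and Slc25a5 at log2 0.87. Of 29 import and cristae genes 3 were higher, near the share of all genes, and of 35 further assembly factors 2 were higher and 1 lower, a smaller share than among all genes. At 3 weeks, where 14.3% of all genes were higher, the higher genes were 8 of 19, 10 of 19, 11 of 29 and 5 of 35 in the same lists, and without replicate C, where 8.92% were, 6, 6, 5 and 1. Of 14 regulators of mitochondrial biogenesis 0 were higher and 4 lower at 3 weeks (12.6% of all genes lower), 2 lower without replicate C, and 0 were higher and 1 lower at 9 weeks (limma). Nrf1 itself was lower at 3 weeks (log2 -0.40 ± 0.13, adjusted p = 0.0269 by limma), a call that was lost without replicate C (adjusted p = 0.0531 by limma).

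Markers of other cells moved with the genotype comparisons as well. At 9 weeks 5 of 7 microglial markers were lower in NPC mice, and their sum was 780429 to 958623 normalized counts in NPC libraries and 1274386 to 1497528 in WT libraries. Of 8 astrocyte and Bergmann glia markers 2 were higher, and their sum was 9391 to 12608 in NPC libraries and 8408 to 9244 in WT libraries, with none at 0. Oligodendrocyte sums were 8416 to 17565 in NPC libraries and 6726 to 7106 in WT libraries (1 of 8 higher), and border macrophage sums 566 to 1061 in NPC libraries and 245 to 504 in WT libraries (2 of 6 higher), both without overlap. At 3 weeks 5 of 7 microglial markers were lower, or 1 of 7 without replicate C, and 2 of 8 astrocyte markers higher, or 1 of 8 without it, with sums of 952863 to 1272497 and 8936 to 11217 in NPC libraries and 1455750 to 1486202 and 8312 to 10700 in WT libraries. Border macrophage sums at 3 weeks were 889 to 1426 in NPC libraries and 341 to 688 in WT libraries, again without overlap, and 2 of 6 markers were higher with or without replicate C. No border macrophage sum was at 0, and the part of these cells in the results was not tested.

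PLX5622 gave no difference in these genes that passed. Limma called 0 of 88 between PLX5622 and control mice, where 0.947% of 12877 genes tested passed in either direction, with 4 genes at an unadjusted p under 0.05 and 0 called by edgeR or DESeq2. The median log2 change was -0.01. Atp5b had 30864, 30603, 26735, 27182 and 24630 normalized counts with PLX5622 and 23705, 25132, 22478, 21556 and 22805 in control mice, so that 4 of 5 treated libraries were above all control libraries (log2 0.27 with a 95% interval of 0.07 to 0.47, adjusted p = 0.196 by limma). Atp5sl had 836, 554, 738, 646 and 806 with PLX5622 and 899, 911, 859, 938 and 1140 in control mice, without overlap (log2 -0.42, adjusted p = 0.19 by limma). Cox6a2 had 68.5, 343, 276, 249 and 226 with PLX5622 and 181, 386, 292, 258 and 282 in control mice, where the lowest library was the first of the treated group and the rest interleaved (log2 -0.40, adjusted p = 0.671 by limma). Cox4i2 had 15.7, 22.9, 14.9, 15.9 and 26.7 with PLX5622 and 6.21, 8.45, 0.886, 5.26 and 2.79 in control mice. These low counts did not overlap, and the gene, named after its values were seen, missed the threshold at log2 1.99 ± 0.65 (unadjusted p = 0.00913, adjusted p = 0.174 by limma). Of 7 monocyte and neutrophil markers the sum ran from 619 to 89431 with PLX5622 and from 286 to 4713 in control mice.

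Control mice of that arm and untreated NPC mice of the same age differed in 0 of the 88 genes by limma, where 0% of 14312 genes passed in either direction. At an unadjusted p under 0.05 there was 1 gene, Cox8b, lower in control mice (log2 -3.03 ± 1.01, adjusted p = 0.662 by limma), and edgeR and DESeq2 called 0. Any difference between these groups and one between the arms cannot be told apart.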

How the data were processed

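RNA was measured in 41 libraries of sorted microglia in 10 groups, which the labels give as strain, age and treatment. The deposited table holds a signal per gene and library, which is the authors' normalized count, scaled by a single factor within each library. STAR 2.5.1b, FastQC 0.11.4, DESeq2 and genome build mm9 are named, per the submitters' processing notes; the annotation, the counting tool and strand are not given in the sources used here. Every value was a whole multiple of 1 step per library (100% of values within 1e-06), which gave back whole reads; on these edgeR called 24.8% of genes in NPC against WT at 3 weeks, where limma called 26.9%. Columns not used: 0. The labels count mice as replicates, so p-values measure the spread between mice. No 2 libraries of the same group agreed within sampling noise, and libraries of different groups were not compared in this way.

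Values were analysed as log2(normalized count + 1) in R 4.3.3 with limma 3.58.1 (trend, robust, two-sided), over genes that reached 10 normalized counts in 3 or more libraries, with Benjamini-Hochberg adjustment over all genes tested and a threshold of 0.05. Fold changes are on that scale and understate changes of low genes. Ages and genotypes were compared in a single fit of 31 libraries (14046 genes, 23 residual degrees of freedom), PLX5622 its 10 libraries (12877 genes, 8) and control against untreated NPC mice all 41 (14312 genes, 31). edgeR 4.0.16 and DESeq2 1.42.0 were run on recovered reads as alternatives. The procedure was tested on simulated data. The simulation gave all genes the same spread and held no outlying library and no length trend, so it does not bear on those features. Reads carry no molecular identifiers, so depth bounds counting error only.

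Transcript length is the median over a gene's protein-coding transcripts in GENCODE vM21. Promoter windows come from RefSeq on GRCm38.p6, another build than the files' mm9, and were used for their letters alone. Roles and complexes were assigned by hand. Members and gene lists were chosen with earlier results of these data known, and the list of ribosomal proteins and 6 alternatives were added after seeing the data. In each complex, values by library are given for the most abundant member and for those with the smallest adjusted p past 0.05 in a genotype, PLX5622 or interaction comparison; Cox8b and other isoforms are given by their levels. Some values this rule covers are not reported here. At 1 week libraries with the same letter deviated together weakly (4 pairs, r 0.111 to 0.163, all 4 best matches). The labels do not say what a letter marks, and the main fit was not paired. In the PLX5622 arm r ran from -0.123 to 0.212 and 4 of 5 pairs were best matches, so pairing there is not settled. At 3 weeks r ran from -0.114 to 0.148 (2 of 4 best matches) and at 6 weeks from -0.215 to 0.0558 (0 of 4). At 9 weeks it ran from -0.0075 to 0.0736 (2 of 3).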

Additional observations from a re-analysis of the deposited data

Results flagged for a closer look

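In groups of 4 or 5 libraries the library farthest from the rest was compared with the spread of its group, for the share on all 88 genes and on each complex and for the genes given by library. This was done in 135 groups, of which chance picks out about 1 in 20, and 17 stood out. NPC 3w replicate C was high in the share on all 88 genes (1.09%, others at most 0.573%), complex I (0.346%), complex IV (0.172%) and complex V (0.332%), and in Cox4i1 (22925 normalized counts), Cox6a2 (343) and Uqcrh (2465). WT 3w replicate A was low in complex IV (0.0375%), Cox4i1 (2839) and Uqcrh (369). WT 1w replicate D was high in complex V (0.333%) and Atp5b (31358), and NPC 1w replicate C was low in complex V (0.262%).

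Single values also stood out for WT 3w replicate D in Ndufs1 (1831, high), NPC 9w control replicate 1 in complex II (0.0623%, low) and Sdha (8291, low), and NPC 9w control replicate 5 in Atp5sl (1140, high).

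The genotype effect on Cox6a2 differed between 3 weeks and 1 week by log2 1.93, by limma's test of the interaction.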

How the results depend on the processing

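Shares of all genes called can move with the setting too and are given only where stated above. Counts of the 88 genes called by limma moved with the setting as follows. NPC against WT at 3 weeks (52) gave 29 with length centring, 11 with that and without NPC 3w replicate C, 1 in a fit of the 2 groups, and 9 to 74 when single libraries were left out, 9 without NPC 3w replicate C, where edgeR gave 9 and DESeq2 11. At 6 weeks (3) it gave 7 with the same total, quantile normalization or length centring, 5 with array weights, 6 with DESeq2, 1 to 13 without single libraries, 13 without NPC 3w replicate C, 9 when replicate D of NPC at 6 weeks was left out, and 0 without its replicates B and C. At 9 weeks (9) it gave 34 with array weights, 15 with length centring, 42 in a fit of the 2 groups, 21 without NPC 3w replicate C, and 4 to 21 without single libraries. At 1 week (0) DESeq2 gave 1. NPC at 3 against 1 week (8) gave 31 with the same total, 54 with array weights, 15 with length centring, 1 in a fit of the 2 groups and 4 to 58 without single libraries. WT at 3 against 1 week (75) gave 48 with length centring. WT at 6 against 3 weeks (0) gave 1 and at 9 against 6 weeks (0) 4 with array weights, the second 0 to 1 without single libraries, 1 without WT 6w replicate C, and control against untreated NPC mice (0) gave 1 with array weights. The interaction of 3 with 1 week (1, Cox6a2) gave 0 with no filter, quantile normalization, length centring, the replicate block or a fit of the groups compared, 3 with DESeq2 and 0 to 1 without single libraries. The replicate block moved no other count by over 1.5 times; no paired fit was run for control against untreated NPC mice because their labels share no numbers. Cox6a2 in WT mice at 3 against 1 week, -0.11, turned to 0.69 with length centring. The causes were not tested. With 3 to 5 mice a group small changes may be missed.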
